A study of Homo sapiens with 12 samples.

Results

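The G1 cyclins and their cyclin-dependent kinase (CDK) inhibitors were followed in BRAF-mutant melanoma cells exposed to the RAF inhibitor vemurafenib. The set holds 10 of the 23273 genes listed for each cell line. It was chosen by gene symbol, with earlier results of these data known. Its members are the D-type cyclins CCND1, CCND2 and CCND3, the E-type cyclins CCNE1 and CCNE2, the CIP/KIP inhibitors CDKN1A, CDKN1B and CDKN1C, and the INK4 inhibitors CDKN2B and CDKN2C. RNA was sequenced in 12 libraries from COLO858 and MMACSF, established melanoma lines grown as monolayers in dishes. Each line was exposed to the vehicle DMSO or to 0.2 μM vemurafenib for 24 or 48 h, with 2 libraries in each of the 6 groups. How long the DMSO cells were kept is not labelled, so both drug times were set against the same pair of DMSO libraries. No group carried a genetic modification in the labels, and each line is a single cell line.

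Passage through G1 depends on kinases whose activity is set by the balance of cyclins and inhibitors. Growth factor signaling through RAF, MEK and ERK induces D-type cyclins, which activate CDK4 and CDK6. These kinases phosphorylate the retinoblastoma protein RB1 and release E2F factors, whose targets include the E-type cyclins that activate CDK2. The CIP/KIP proteins p21 (CDKN1A), p27 (CDKN1B) and p57 (CDKN1C) block CDK2 complexes, whereas the INK4 proteins p15 (CDKN2B) and p18 (CDKN2C) bind CDK4 and CDK6 and keep them from D-type cyclins. In melanoma, CCND1 is among the best known outputs of the mutant BRAF pathway.

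Values were FPKM, the number of fragments per kilobase of a transcript relative to all mapped fragments, which allow levels to be compared between genes of 1 library. Summed FPKM were 670310 to 1013040 in COLO858 and 726083 to 856083 in MMACSF. This sum is not a read depth, which is unknown. The small RNA gene MIR4461 alone made up 14.1 to 43.4% of it in COLO858 and 14.7 to 33.0% in MMACSF. Of 8 melanocyte lineage markers, 6 were at 1 FPKM or more in every COLO858 library and 8 in every MMACSF library. MLANA stayed below 1 FPKM in COLO858. The summed melanocyte markers were 702 to 717 FPKM under DMSO and 3922 to 4158 FPKM in drug in COLO858, and 11160 to 11373 FPKM and 15589 to 17555 FPKM in MMACSF. Of 5 fibroblast markers, 1 was at 1 FPKM or more in every COLO858 library and 3 in every MMACSF library. Their sum was 8.32 to 11.3 FPKM under DMSO and 15.5 to 27.2 FPKM in drug in COLO858, and 57.9 to 79.3 FPKM and 20.1 to 53.6 FPKM in MMACSF. Of the keratinocyte and leukocyte markers, KRT10 and LYZ alone reached 1 FPKM, and endothelial markers summed to 0.271 to 0.794 FPKM. The part of these markers in the results below was not tested. In RNA from whole dishes, fewer cells with a transcript and less of it per cell cannot be told apart.

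Tests were made with limma on log2(FPKM + 1), separately for COLO858 and MMACSF. A change had to reach a Benjamini-Hochberg adjusted p under 0.01 over all genes tested. Whether the lines responded differently was tested by an interaction term over the 12 libraries, given as the log2 fold-change in COLO858 minus that in MMACSF. The study's methods describe replicate plates but not whether these came from independently grown cultures. The p-values therefore measure the spread between such plates. Libraries of a line with the same replicate number departed from their group means together, which this fit leaves out. The labels do not say what these numbers pair. A fit with a term for the replicate number, called a replicate block, put more members and more genes past the threshold in several comparisons. Its values are given in the last section. Of the 10 members, 9 reached 1 FPKM as a group mean in COLO858 and 8 in MMACSF. The exceptions were CCND2 in both lines and CDKN1C in MMACSF.

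In COLO858 at 24 h, 0 members rose and 3 of 9 fell, namely CCND1, CDKN2B and CDKN2C, against 4.11% of all tested genes called higher and 5.71% called lower. At 48 h CCND1 and CDKN2B were lower, against 4.74% higher and 4.73% lower over all genes. Between 24 and 48 h CCND1 and CDKN2C rose and 0 members fell, against backgrounds of 1.17% and 0.213%. In MMACSF at 24 h CDKN1B rose and CCND1 and CCNE2 fell, against 2.22% of genes higher and 3.6% lower. At 48 h CDKN1B was higher and CCND1, CCNE2 and CDKN1A were lower, against 3.42% and 5.41%. Between 24 and 48 h 0 of 8 members passed the threshold by limma in MMACSF, with 1 at an unadjusted p under 0.05, against backgrounds of 0.111% and 0.111%. The median log2 fold-change of the members tested in COLO858 was -1.18 at 24 h and -0.31 at 48 h, beside 0.06 and -0.01 over all genes. In MMACSF it was -0.89 at 24 h and -0.93 at 48 h, beside 0.07 and 0.06.

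**Figure D1:**
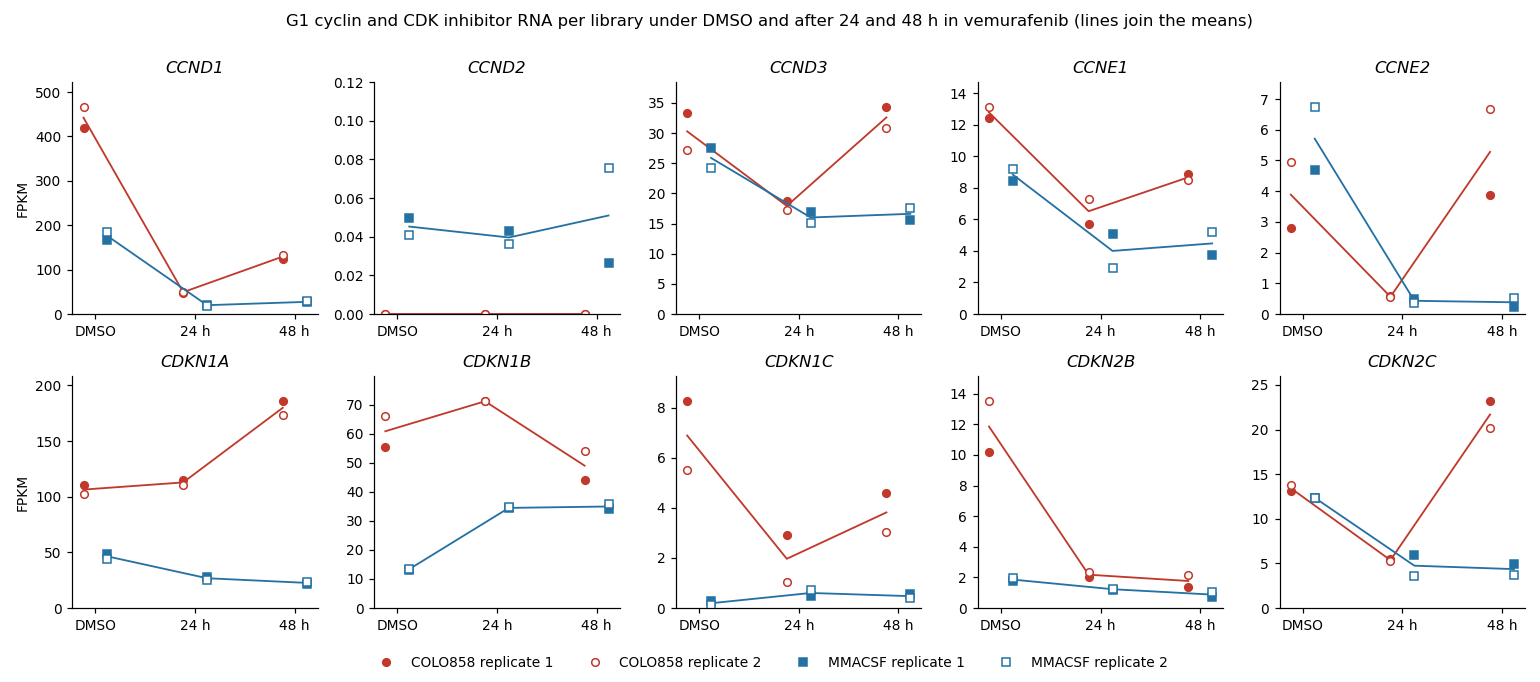
FPKM of the 10 members in each of the 12 libraries (vertical axes, linear and separate for each gene) by condition (horizontal axes); filled and open symbols are replicates 1 and 2, circles are COLO858, squares are MMACSF and lines join the means. CCND1 dropped to 11.1% and 11.3% of its DMSO mean at 24 h in COLO858 and MMACSF, and at 48 h CDKN1A stood at 169% of its DMSO mean in COLO858 and 48.7% in MMACSF, and CDKN1B at 80.6% and 261%.

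CCND1, the D-type cyclin most closely tied to ERK signaling, was the most abundant member under DMSO in both lines and fell steeply in both. COLO858 libraries held 418 and 466 FPKM under DMSO, 48.1 and 50.4 FPKM at 24 h and 125 and 134 FPKM at 48 h. The 3 groups did not overlap, and the 48 h libraries lay between the other groups. The log2 fold-change against DMSO was -3.14 ± 0.12 (SE, adjusted p = 0.000539) at 24 h and -1.76 ± 0.12 (adjusted p = 0.00126) at 48 h, and the rise from 24 to 48 h was 1.38 ± 0.12 (adjusted p = 0.00744). Its mean thus stood at 11.1% of the DMSO mean at 24 h and at 29.3% at 48 h. In MMACSF the libraries held 168 and 184 FPKM under DMSO, 21.0 and 18.8 FPKM at 24 h and 26.6 and 28.3 FPKM at 48 h. Here too the drug libraries lay far below DMSO, by log2 fold-changes of -3.08 ± 0.12 (adjusted p = 0.000503) and -2.64 ± 0.12 (adjusted p = 0.000428). The change from 24 to 48 h was 0.45 with a 95% interval of 0.14 to 0.75 (adjusted p = 0.450).

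The loss of CCND1 at 24 h did not separate the lines, with a line difference of -0.06 and a 95% interval of -0.40 to 0.28. By 48 h the line difference was 0.87 ± 0.15 (adjusted p = 0.00577), and the change from 24 to 48 h differed by 0.93 ± 0.15 (adjusted p = 0.00840). CCND1 (GRCh37 chr11:69455924-69469242, plus strand) overlaps LTO1, listed as ORAOV1, which stayed between 2.72 and 4.21 FPKM in COLO858 and between 6.06 and 8.96 FPKM in MMACSF. With any 1 library left out the falls at 24 h in both lines and at 48 h in MMACSF kept an adjusted p under 0.01. The 48 h fall in COLO858 then had an adjusted p of 0.0121 to 0.0140, the rise from 24 to 48 h of 0.0502 to 0.0647, and the line differences of 0.0108 to 0.0279 at 48 h and 0.0189 to 0.0411 from 24 to 48 h. With no expression minimum the rise in COLO858 had an adjusted p of 0.0108.

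CCND3 and CCND2 are the other D-type cyclins and pair with the same kinases. CCND3 in COLO858 was 33.3 and 27.3 FPKM under DMSO, 18.7 and 17.2 FPKM at 24 h and 34.3 and 30.9 FPKM at 48 h. The 24 h libraries were lowest, and those at 48 h overlapped DMSO. The log2 fold-changes were -0.72 (95% interval -1.12 to -0.32, adjusted p = 0.0274) and 0.11 (-0.29 to 0.51), which did not pass the threshold. In MMACSF CCND3 was 27.5 and 24.3 FPKM under DMSO, 16.9 and 15.2 FPKM at 24 h and 15.6 and 17.6 FPKM at 48 h. Both drug groups lay below DMSO, at -0.66 (95% interval -1.01 to -0.31, adjusted p = 0.0282) and -0.61 (-0.96 to -0.26, adjusted p = 0.0301). The line difference at 48 h was 0.72, with an interval of 0.27 to 1.16 and an adjusted p of 0.0396. CCND2 was listed at 0 in all 6 COLO858 libraries and at 0.0264 to 0.0756 FPKM in MMACSF, and it was not tested.

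The make-up of D-type cyclin RNA shifted with these changes. CCND1 made up 92.6 and 94.5% of summed D-type cyclin FPKM in the COLO858 DMSO libraries, 72.0 and 74.6% at 24 h and 78.4 and 81.3% at 48 h. In MMACSF the shares were 85.9 and 88.3% under DMSO, 55.4 and 55.3% at 24 h and 62.9 and 61.5% at 48 h. In neither line did the drug libraries overlap those under DMSO. CCND3 lies at chr6:41902672-42018095 on the minus strand and CCND2 at chr12:4378937-4414519 on the plus strand.

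The E-type cyclins activate CDK2 at the transition into S phase. CCNE1 (chr19:30302898-30315219, plus strand) was 12.4 and 13.1 FPKM under DMSO in COLO858, 5.73 and 7.30 FPKM at 24 h and 8.86 and 8.47 FPKM at 48 h. Corresponding values in MMACSF were 8.46 and 9.21, 5.10 and 2.90, and 3.75 and 5.20 FPKM. All drug libraries lay below the DMSO libraries of their line, yet 0 of the CCNE1 comparisons passed the threshold by the fit described above. Log2 fold-changes were -0.88 (95% interval -1.29 to -0.48, adjusted p = 0.0162) and -0.51 (-0.91 to -0.11, adjusted p = 0.0720) at the respective times in COLO858. In MMACSF they were -1.01 (-1.67 to -0.35, adjusted p = 0.0501) and -0.86 (-1.52 to -0.20, adjusted p = 0.0686). When libraries were rescaled by median ratios, the 24 h value in COLO858 was -0.98 and passed the threshold (adjusted p = 0.00820). With a replicate block it was -0.88 and passed too (adjusted p = 0.00297), in a fit that called 5719 of 12696 genes. The line difference was 0.13 at 24 h (-0.60 to 0.85) and 0.35 at 48 h (-0.38 to 1.07).

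CCNE2 was the member whose 48 h response differed most between the lines on the log2 scale. In COLO858 it was 2.81 and 4.96 FPKM under DMSO, 0.572 and 0.551 FPKM at 24 h and 3.87 and 6.69 FPKM at 48 h. The 24 h libraries were far below the others, and the 48 h and DMSO libraries overlapped. MMACSF libraries held 4.68 and 6.74 FPKM under DMSO, 0.497 and 0.364 FPKM at 24 h and 0.243 and 0.521 FPKM at 48 h, so that both drug groups stayed low. The fall in MMACSF was -2.21 ± 0.22 (adjusted p = 0.00405) at 24 h and -2.27 ± 0.22 (adjusted p = 0.00295) at 48 h. In COLO858 the values were -1.61 ± 0.31 (adjusted p = 0.0195) at 24 h, 0.36 ± 0.31 (adjusted p = 0.444) at 48 h and 1.97 ± 0.31 (adjusted p = 0.0292) between the drug times, none of them past the threshold. The 24 h fall in COLO858 passed it with 0.1 FPKM added in place of 1 (-2.54, adjusted p = 0.00936) and without small RNA genes (-1.61, adjusted p = 0.00865).

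The line difference for CCNE2 was 0.60 at 24 h (95% interval -0.31 to 1.52) and 2.63 ± 0.40 at 48 h (adjusted p = 0.00325). Its share of E-type cyclin FPKM in COLO858 averaged 22.9% under DMSO, 8.05% at 24 h and 37.3% at 48 h, and the MMACSF shares were 38.9%, 10.0% and 7.59%. CCNE2 levels were uneven between replicates, with replicate 2 the higher library under DMSO and at 48 h in both lines. The gene (chr8:95891998-95908906, minus strand) overlaps INTS8, which was 9.47 to 16.4 FPKM in COLO858 and 6.71 to 10.2 FPKM in MMACSF and was also higher in replicate 2 of every group. With any 1 library left out the falls in MMACSF had adjusted p of 0.0186 to 0.0301 at 24 h and 0.0134 to 0.0276 at 48 h, and the line difference at 48 h of 0.00373 to 0.0171, above 0.01 for 5 of 8 libraries.

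**Figure D2:**
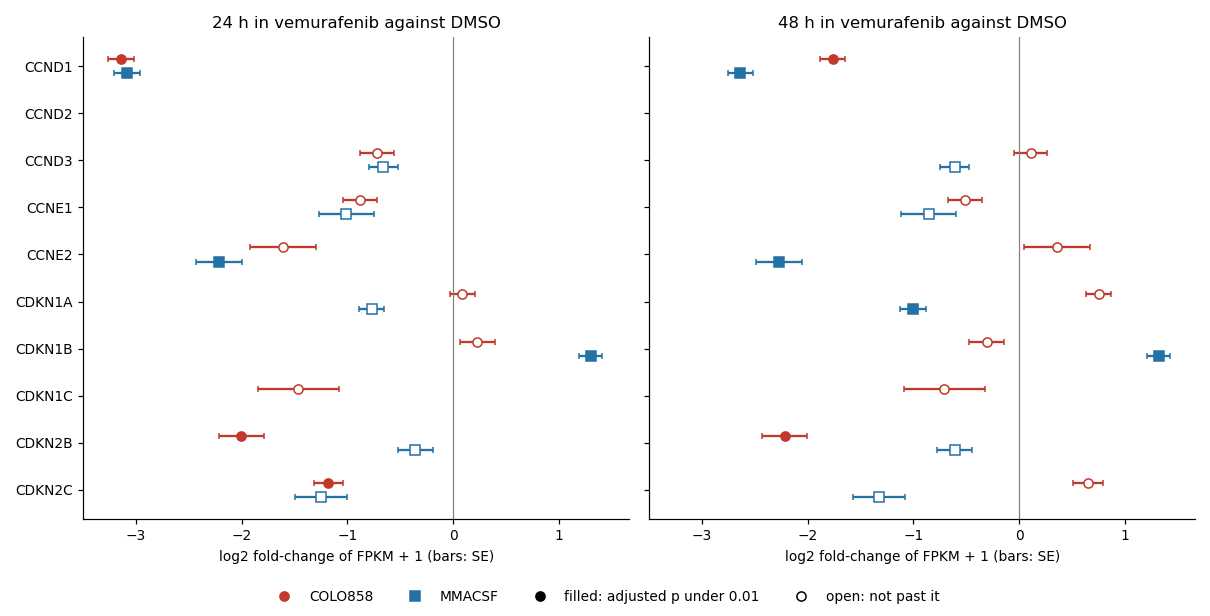
Log2 fold-change of FPKM + 1 against DMSO (horizontal axes) for each member at 24 h (left) and 48 h (right), with SE as bars; red circles are COLO858, blue squares are MMACSF, and filled symbols have an adjusted p under 0.01. CCND1 lay near -3 in both lines at 24 h, and at 48 h CCNE2, CDKN1A and CDKN2C were above 0 in COLO858 and below 0 in MMACSF, with only the MMACSF values of CCNE2 and CDKN1A past the threshold.

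Of the 10 members, 6 were matched to the RefSeq promoter table (GRCh38.p14), and the sequences were placed on GRCh37 by exact match. The promoters of CDKN1A and CDKN1B are shown because the RNA of these inhibitors moved apart in the 2 lines. Each runs 5′ to 3′ on the plus strand over 240 bases, from 250 to 11 bases before the RefSeq start. Capitals mark GC boxes (GGGCGG or its complement CCGCCC) and CCAAT boxes (CCAAT or its complement ATTGG).
CDKN1A chr6:36646241-36646480: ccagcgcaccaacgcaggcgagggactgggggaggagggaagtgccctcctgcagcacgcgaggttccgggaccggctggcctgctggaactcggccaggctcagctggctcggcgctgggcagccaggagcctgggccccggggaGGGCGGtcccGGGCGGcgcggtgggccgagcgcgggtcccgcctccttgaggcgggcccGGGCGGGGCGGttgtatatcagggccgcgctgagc
CDKN1B chr12:12870052-12870291: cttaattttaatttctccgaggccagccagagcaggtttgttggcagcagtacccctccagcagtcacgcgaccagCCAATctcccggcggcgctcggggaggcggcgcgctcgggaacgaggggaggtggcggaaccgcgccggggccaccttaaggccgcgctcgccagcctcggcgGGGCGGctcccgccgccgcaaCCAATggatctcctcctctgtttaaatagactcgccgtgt
The CDKN1A window held 4 GC boxes, a pair of them overlapping, and 0 CCAAT boxes, and the CDKN1B window held 1 GC box and 2 CCAAT boxes. Over 35116 promoters of this length, 41.4% held a GC box and 31.4% a CCAAT box on either strand. The forkhead letters TGTTTAC, searched on both strands, occurred in 2.85% of promoters and in neither window.

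CDKN1A encodes p21, the classical target of p53. In COLO858 it was 111 and 102 FPKM under DMSO, 115 and 110 FPKM at 24 h and 186 and 174 FPKM at 48 h. The 24 h and DMSO libraries overlapped, and both 48 h libraries were the highest of the line. MMACSF libraries held 48.3 and 44.5 FPKM under DMSO, 28.1 and 25.5 FPKM at 24 h and 22.0 and 23.3 FPKM at 48 h, each group below the one before. In COLO858 the log2 fold-change was 0.08 (95% interval -0.21 to 0.38) at 24 h and 0.75 ± 0.12 at 48 h, where the adjusted p of 0.0107 just missed the threshold. The 24 h value turned to -0.026 when libraries were rescaled by median ratios. In MMACSF the log2 fold-change was -0.77 ± 0.12 (adjusted p = 0.0129) at 24 h and reached -1.0 ± 0.12 (adjusted p = 0.00528) at 48 h, a level of 48.7% of the DMSO mean. Without small RNA genes the 48 h rise in COLO858 (adjusted p = 0.00716) and the 24 h fall in MMACSF (adjusted p = 0.00780) passed the threshold.

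The responses of CDKN1A differed between the lines in all 3 comparisons. The line difference was 0.86 ± 0.14 (adjusted p = 0.00790) at 24 h, 1.76 ± 0.14 (adjusted p = 0.000146) at 48 h and 0.90 ± 0.14 (adjusted p = 0.00733) between the drug times. The 48 h difference kept an adjusted p of 0.000723 to 0.00136 with any 1 library left out. The other 2 then had adjusted p of 0.0174 to 0.0343 and 0.0177 to 0.0385, and the fall in MMACSF at 48 h of 0.0354 to 0.0508. After median-ratio rescaling the differences at 24 h and between the drug times had adjusted p of 0.0307 and 0.0244. CDKN1A lies at chr6:36644237-36655114 on the plus strand.

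CDKN1B encodes p27, the CIP/KIP inhibitor best known for holding quiescent cells out of the cycle. MMACSF libraries had 13.2 and 13.6 FPKM under DMSO, 34.3 and 34.6 FPKM at 24 h and 34.1 and 35.8 FPKM at 48 h. Every drug library was above both DMSO libraries, and the drug times overlapped. The rise was 1.30 ± 0.11 (adjusted p = 0.00257) at 24 h and 1.32 ± 0.11 (adjusted p = 0.00191) at 48 h, to 257% and 261% of the DMSO mean. In COLO858 CDKN1B started higher, at 55.5 and 66.2 FPKM, and was 71.2 and 71.1 FPKM at 24 h and 43.9 and 54.1 FPKM at 48 h. The libraries at 24 h lay just above DMSO and those at 48 h just below, with log2 fold-changes of 0.23 (95% interval -0.18 to 0.64) and -0.31 (-0.72 to 0.10).

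The line difference for CDKN1B was -1.07 ± 0.18 (adjusted p = 0.00832) at 24 h and -1.63 ± 0.18 (adjusted p = 0.000659) at 48 h. The 48 h value kept an adjusted p of 0.00121 to 0.00469 with any 1 library left out. The 24 h value then had 0.0122 to 0.0342, and the rises in MMACSF 0.0227 to 0.0274 at 24 h and 0.0202 to 0.0284 at 48 h. In the annotation CDKN1B (chr12:12838432-12875303, plus strand) overlaps GPR19. GPR19 was 3.98 and 3.96 FPKM under DMSO and 6.42 to 9.85 FPKM in drug in MMACSF, and 7.10 and 8.55 FPKM under DMSO and 10.0 to 18.4 FPKM in drug in COLO858. The part of GPR19 reads in the CDKN1B values was not tested.

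CDKN1C encodes p57, an imprinted inhibitor. In COLO858 it was 8.26 and 5.51 FPKM under DMSO, 2.90 and 1.03 FPKM at 24 h and 4.60 and 3.04 FPKM at 48 h, with replicate 1 the higher library in each group. All drug libraries were below DMSO, but the log2 fold-changes of -1.46 ± 0.38 (adjusted p = 0.0443) and -0.71 ± 0.38 (adjusted p = 0.234) did not pass the threshold. In MMACSF CDKN1C was 0.275 and 0.110 FPKM under DMSO, 0.466 and 0.739 FPKM at 24 h and 0.568 and 0.383 FPKM at 48 h. Drug libraries there lay above DMSO but below 1 FPKM, and CDKN1C was not tested in that line. It entered the line differences through its COLO858 levels alone. The line differences were -1.89 (adjusted p = 0.0367) at 24 h, -1.02 (0.187) at 48 h and 0.87 (0.387) between the drug times. None passed the threshold, and all rest on MMACSF values below 1 FPKM. The gene lies at chr11:2904443-2907005 on the minus strand.

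**Figure D3:**
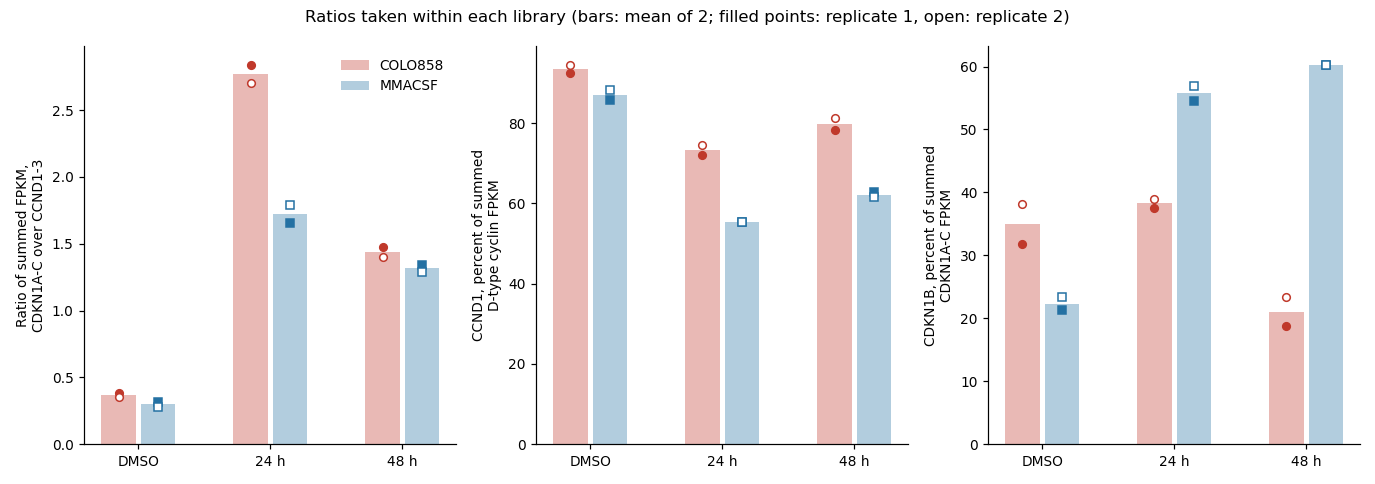
Ratios within each library, by condition and line: summed FPKM of CDKN1A, CDKN1B and CDKN1C over that of CCND1, CCND2 and CCND3 (left), the percent of D-type cyclin FPKM from CCND1 (center) and the percent of CIP/KIP FPKM from CDKN1B (right); bars are means of 2 libraries and points are libraries. The left panel rises from below 0.4 under DMSO to above 1 in every drug library, and in the right panel MMACSF climbs from 21.4 and 23.3% to 60.2% in both 48 h libraries, whereas COLO858 is lowest at 48 h.

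A ratio within a library does not depend on how libraries were scaled. The summed FPKM of the 3 CIP/KIP inhibitors over that of the 3 D-type cyclins was 0.386 and 0.352 under DMSO in COLO858, 2.84 and 2.70 at 24 h and 1.47 and 1.40 at 48 h. In MMACSF it was 0.317 and 0.279 under DMSO, 1.66 and 1.79 at 24 h and 1.34 and 1.29 at 48 h. In both lines this ratio was highest at 24 h and remained above DMSO at 48 h in every library. In MMACSF the CIP/KIP sum itself averaged 60.0 FPKM under DMSO, 61.9 FPKM at 24 h and 58.0 FPKM at 48 h, while its make-up changed. CDKN1B contributed 21.4 and 23.3% of the sum under DMSO, 54.6 and 56.9% at 24 h and 60.2 and 60.2% at 48 h in that line. In COLO858 the sum averaged 174, 186 and 233 FPKM, and the CDKN1B share was 31.8 and 38.1%, 37.6 and 39.0%, and 18.7 and 23.4%. The 48 h libraries of COLO858 therefore held the lowest CDKN1B shares of that line and those of MMACSF the highest of theirs. These ratios are descriptions and were not tested.

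CDKN2B encodes p15, an INK4 inhibitor induced by TGF-β in many cells. In COLO858 it was 10.2 and 13.5 FPKM under DMSO, 2.02 and 2.34 FPKM at 24 h and 1.41 and 2.13 FPKM at 48 h. Drug libraries were all well below DMSO and overlapped each other. CDKN2B fell by 2.01 ± 0.21 on the log2 scale (adjusted p = 0.00363) at 24 h and by 2.22 ± 0.21 (adjusted p = 0.00303) at 48 h. Levels in MMACSF were low throughout, at 1.77 and 1.95 FPKM under DMSO, 1.21 and 1.26 FPKM at 24 h and 0.713 and 1.04 FPKM at 48 h. Its log2 fold-changes there were -0.36 (95% interval -0.77 to 0.05) and -0.61 (-1.02 to -0.20, adjusted p = 0.0483).

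The line difference for CDKN2B was -1.65 ± 0.25 (adjusted p = 0.00597) at 24 h and -1.61 ± 0.25 (adjusted p = 0.00386) at 48 h, on a scale that understates changes near 1 FPKM. With 0.1 FPKM added in place of 1 these were -1.82 (adjusted p = 0.0230) and -1.67 (adjusted p = 0.0189). With any 1 library left out the falls in COLO858 had adjusted p of 0.0162 to 0.0300 at 24 h and 0.0153 to 0.0224 at 48 h, and the line differences of 0.00847 to 0.0263 and 0.00552 to 0.0187, above 0.01 for 7 and 6 of 8 libraries. CDKN2B (chr9:22002902-22009304, minus strand) lies inside the antisense gene CDKN2B-AS1, which was 0.324 to 1.19 FPKM in COLO858 and 0.449 to 0.658 FPKM in MMACSF. Whether reads were counted by strand is not given in the sources used here, so reads of the pair cannot be told apart. CDKN2B also resembles a neighboring INK4 gene in sequence, and how shared reads were divided is not given either.

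CDKN2C encodes p18, an INK4 inhibitor that is itself a target of E2F. In COLO858 it was 13.1 and 13.7 FPKM under DMSO, 5.44 and 5.29 FPKM at 24 h and 23.2 and 20.2 FPKM at 48 h. The groups did not overlap, with 24 h lowest and 48 h highest. The fall at 24 h was -1.18 ± 0.14 (adjusted p = 0.00484) and the rise from 24 to 48 h was 1.83 ± 0.14 (adjusted p = 0.00523), while the 48 h value against DMSO was 0.65 ± 0.14 (adjusted p = 0.0268). MMACSF libraries held 12.4 and 12.3 FPKM under DMSO, 5.94 and 3.55 FPKM at 24 h and 4.98 and 3.75 FPKM at 48 h. Both drug groups lay below DMSO, with -1.25 ± 0.24 (adjusted p = 0.0236) and -1.33 ± 0.24 (adjusted p = 0.0167), which did not pass the threshold. Without small RNA genes the 48 h value passed it (adjusted p = 0.00717).

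The line difference for CDKN2C was 0.07 at 24 h (95% interval -0.58 to 0.72), 1.98 ± 0.28 (adjusted p = 0.00253) at 48 h and 1.91 ± 0.28 (adjusted p = 0.00616) between the drug times. The latter 2 had adjusted p of 0.00683 to 0.0127 and 0.00269 to 0.0295 with any 1 library left out, above 0.01 for 6 of 8 libraries each, and the fall at 24 h and the rise from 24 to 48 h in COLO858 had 0.0335 to 0.0422 and 0.0448 to 0.0513. CDKN2C lies at chr1:51426417-51440306 on the plus strand.

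Across the set 9 members were tested for line differences, CDKN1C through its COLO858 levels alone. The responses of 3 of the 9 differed between the lines at 24 h. In COLO858 1 had the higher fold-change and 2 the lower, against backgrounds of 1.78% and 1.93%. At 48 h 6 of 9 did, CCND1, CCNE2, CDKN1A and CDKN2C with the higher fold-change in COLO858 and CDKN1B and CDKN2B with the lower, against 4.19% and 3.3%. The change from 24 to 48 h differed for CCND1, CDKN1A and CDKN2C, all higher in COLO858, against 2.46% higher and 0.508% lower. Leaving out any 1 library gave 0 to 1 members at 24 h, 2 to 4 at 48 h and 0 to 1 between the drug times.

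**Figure D4:**
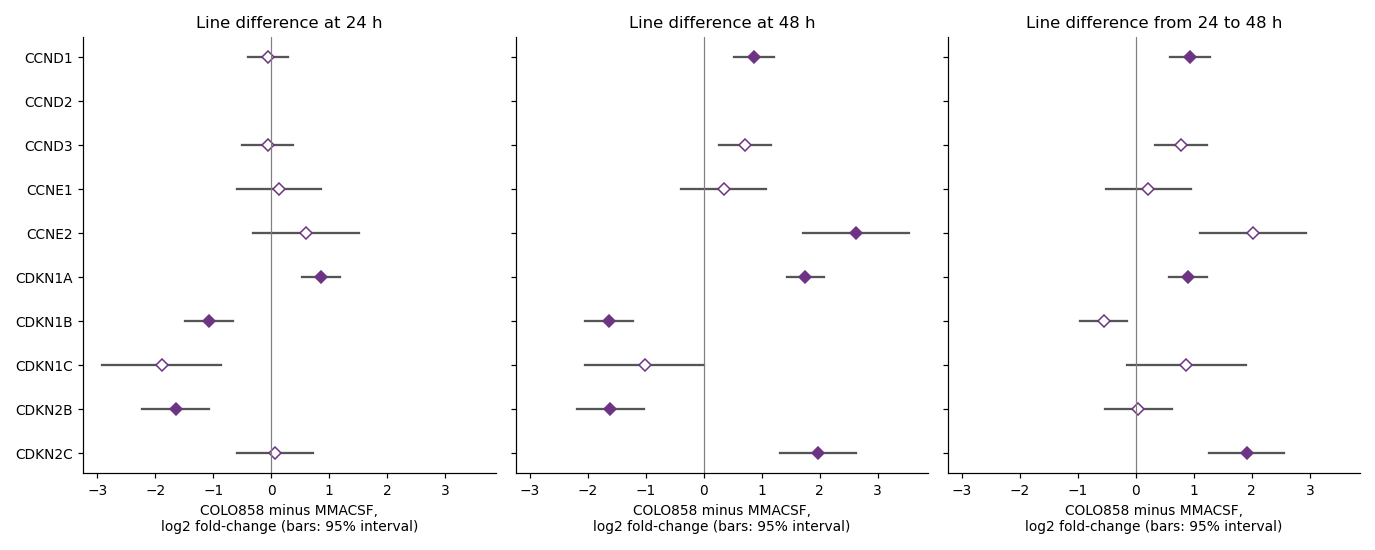
Line difference (log2 fold-change in COLO858 minus that in MMACSF, horizontal axes) for 9 members at 24 h, at 48 h and from 24 to 48 h, with 95% intervals as bars and filled diamonds for an adjusted p under 0.01; CCND2 was not tested. At 48 h 4 filled diamonds lie to the right of 0 and 2 to the left.

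The kinases that the cyclins activate were also measured. CDK4, a partner of D-type cyclins, was 120 and 120 FPKM under DMSO in COLO858 and 91.8 to 99.0 FPKM in drug, and 500 and 483 FPKM and 366 to 376 FPKM in MMACSF. Drug libraries were below DMSO in both lines, with log2 fold-changes of -0.28 and -0.37 in COLO858 (adjusted p = 0.117 and 0.0609) and -0.39 and -0.41 in MMACSF (adjusted p = 0.0444 and 0.0327). CDK6, the other partner, was -1.02 (95% interval -1.73 to -0.31) at 24 h in COLO858 and between -0.39 and -0.25 in the other comparisons with DMSO. CDK2, the partner of E-type cyclins, had log2 fold-changes of 0.16 and -0.36 in COLO858 and -0.63 and -0.45 in MMACSF. Its MMACSF libraries held 516 and 602 FPKM under DMSO and 339 to 438 FPKM in drug (adjusted p = 0.0356 and 0.0761). In COLO858 the adjusted p was 0.502 and 0.175, and the line difference at 24 h was 0.79 (adjusted p = 0.0607). None of the 3 kinases passed the threshold in any comparison with DMSO.

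The pocket proteins are the substrates of these kinases. RB1 had log2 fold-changes of -0.04 and 0.11 in COLO858 and 0.03 and -0.12 in MMACSF, with all 4 of its 95% intervals inside -0.69 to 0.71. RBL1 in COLO858 was 6.60 and 9.46 FPKM under DMSO, 2.43 and 2.92 FPKM at 24 h and 6.99 and 8.52 FPKM at 48 h. Those of MMACSF held 7.62 and 9.92, 3.46 and 4.31, and 3.69 and 4.95 FPKM, so that the 24 h libraries were low in both lines and the 48 h libraries in MMACSF. Its adjusted p was 0.0132 at 24 h in COLO858 and 0.0284 at 24 h in MMACSF. RBL2 had log2 fold-changes of 0.22 to 0.47 in the 4 comparisons with DMSO and did not pass the threshold.

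Among 44 other genes of G1 control, 43 were tested in each line. In COLO858 12 fell at 24 h (5.71% of all genes), 3 were lower at 48 h (4.73%) and 4 rose between the drug times (1.17%), with 0 changes in the opposite direction. In MMACSF 9 fell at 24 h (3.6%), 10 were lower (5.41%) and 1 higher (3.42%) at 48 h, and by limma 0 changed between the drug times, with 5 at an unadjusted p under 0.05. The 43 genes had a median log2 fold-change of -0.44 and -0.34 in COLO858 and of -0.19 and -0.24 in MMACSF, at the respective drug times. With any 1 library left out, 2 to 4 genes of COLO858 passed at 24 h, 0 at 48 h and 0 between the drug times, and 0 to 1 and 2 to 3 of MMACSF at 24 and 48 h.

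E2F1, the factor released from RB1, had the largest fall past the threshold among them at 24 h in both lines and at 48 h in MMACSF. COLO858 libraries had 44.6 and 35.7 FPKM under DMSO, 2.17 and 2.19 FPKM at 24 h and 26.3 and 22.5 FPKM at 48 h, a near loss at 24 h and a partial return. In MMACSF it was 40.1 and 29.8, 2.08 and 2.76, and 1.98 and 1.63 FPKM, with no return. Log2 fold-changes were -3.69 ± 0.17 (adjusted p = 0.000678) at 24 h in COLO858 and -3.39 ± 0.21 (adjusted p = 0.00139) and -3.67 ± 0.21 (adjusted p = 0.000719) in MMACSF. The line difference was 2.98 ± 0.26 (adjusted p = 0.000242) at 48 h.

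MYC, a growth-promoting transcription factor, had the largest fall of these 43 genes at 48 h in COLO858. It was 136 and 113 FPKM under DMSO, 66.5 and 57.9 FPKM at 24 h and 39.7 and 36.3 FPKM at 48 h, each group below the one before. Its log2 fold-change at 48 h was -1.68 ± 0.16 (adjusted p = 0.00274). In MMACSF MYC was lower too, at 74.7 and 63.8 FPKM under DMSO, 22.7 and 17.4 FPKM at 24 h and 31.0 and 26.9 FPKM at 48 h. The log2 fold-changes there were -1.74 (adjusted p = 0.00438) and -1.23 (adjusted p = 0.00842). The line difference at 48 h was -0.45 (adjusted p = 0.264). Against DMSO a single gene of the 43 was higher past the threshold, at 48 h in MMACSF, near the share of 3.42% over all genes. That gene was FOXO4, a forkhead factor. It was 4.0 and 3.98 FPKM under DMSO, 7.87 and 7.25 FPKM at 24 h and 8.29 and 8.81 FPKM at 48 h, and the 48 h rise was 0.94 ± 0.13 (adjusted p = 0.00812). In COLO858 FOXO4 was 5.46 and 5.18, 9.09 and 8.30, and 8.38 and 7.25 FPKM. All drug libraries there lay above DMSO, by 0.62 (adjusted p = 0.0341) and 0.48 (adjusted p = 0.0684). The line differences of -0.16 at 24 h (adjusted p = 0.667) and -0.46 at 48 h (adjusted p = 0.0985) did not pass the threshold.

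Between the lines, the response of 1 of the 43 genes differed at 24 h, with the lower fold-change in COLO858 like 1.93% of all genes. At 48 h 7 had the higher fold-change in COLO858, against 4.19%, and from 24 to 48 h 8 did, against 2.46%. With any 1 library left out these counts were 0 to 1, 4 to 6 and 4 to 7. A count of 1 at 24 h is near the share over all genes. That gene was CDKN2D, the INK4 inhibitor p19, named after its values were seen. CDKN2D was 31.6 and 31.2 FPKM under DMSO and 9.91 and 10.1 FPKM at 24 h in COLO858, and 12.1 and 11.3 FPKM and 9.82 and 8.05 FPKM in MMACSF. The COLO858 libraries fell far below DMSO and those of MMACSF lay slightly below it, with a line difference of -1.20 ± 0.18 (adjusted p = 0.00537).

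**Figure D5:**
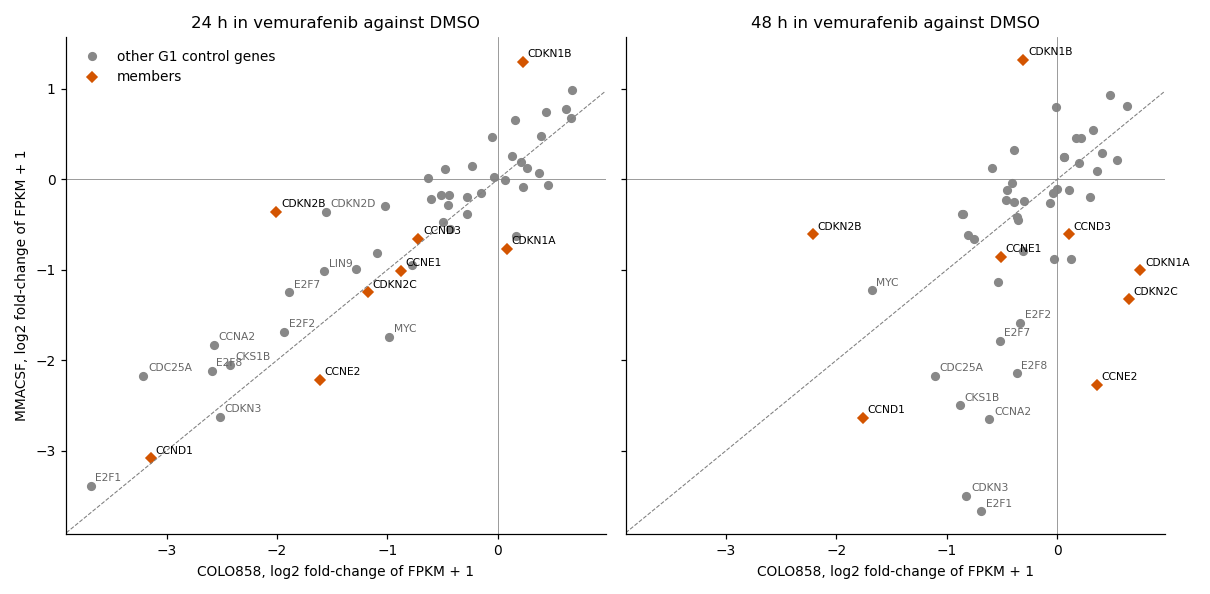
Log2 fold-change of FPKM + 1 against DMSO in COLO858 (horizontal axes) and MMACSF (vertical axes) at 24 h (left) and 48 h (right) for the members (orange diamonds, 8 shown) and 43 other genes of G1 control (gray circles, named where either value is beyond 1.5); the dashed line marks equal values. At 24 h E2F1 lay at -3.69 and -3.39, near the line, and at 48 h it lay far below the line. Of the members at 48 h, CCNE2, CDKN1A and CDKN2C lay furthest below the line and CCND1, CCND3 and CCNE1 less far. CDKN1B and CDKN2B lay above it.

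The genes whose change from the DMSO mean of their own line was most like that of each member were ranked by Pearson correlation over the 12 libraries. Up to 3025 genes were compared for each of the 8 members tested in both lines. The libraries of a line share their DMSO mean, so these values are descriptions. CCND1 was most like WHSC1 (r = 0.982) and CENPW (0.981), CCND3 like RECQL4 (0.969) and PCNA-AS1 (0.967), and CCNE1 like C1orf135 (0.957) and EEF1E1 (0.953). CCNE2 was most like HSP90AA1 (0.985) and ICMT (0.974). In COLO858 HSP90AA1, a heat shock chaperone, was 435 and 575 FPKM under DMSO, 257 and 332 FPKM at 24 h and 478 and 597 FPKM at 48 h. The MMACSF values were 494 and 554, 236 and 253, and 233 and 242 FPKM. Its 48 h libraries overlapped DMSO in COLO858 and lay below DMSO in MMACSF.

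CDKN1A was most like SHROOM2 (r = 0.971) and DAAM2 (0.964), and CDKN1B like TRIB2 (0.984) and ZNF280B (0.979). TRIB2, a pseudokinase, was 116 and 130 FPKM under DMSO and 221 to 263 FPKM in drug in MMACSF, and its COLO858 values were 129 and 141, 129 and 142, and 106 and 114 FPKM. CDKN2B was most like ASNS (0.992), the asparagine synthetase, and TOP1 (0.989), and CDKN2C like ADAMTS1 (0.961) and IQGAP3 (0.958). ASNS was 73.0 and 91.9 FPKM under DMSO and 16.9 to 21.3 FPKM in drug in COLO858, and 0.509 to 1.38 FPKM in all MMACSF libraries.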

How the data were processed

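The 12 libraries were prepared by the authors with a stranded mRNA kit and sequenced as single reads. Per the labels and the study's methods, reads were mapped to hg19 with TopHat, and the deposited values, 1 table for each line, are the authors' FPKM from Cuffdiff. Program versions, gene annotation and strand setting are not given in the sources used here. FPKM carry no read depth, and low values shared a common step in at most 11.3% of low genes, so reads could not be recovered and the precision that depth sets is unknown. All 12 columns were used.

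Each line was fitted on its own (limma 3.58.1 in R 4.3.3; 3 groups, mean-variance trend) on log2(FPKM + 1), over 12696 genes in COLO858 and 12599 in MMACSF averaging 1 FPKM or more in any group. Line differences were fitted over 12 libraries and 13595 genes. Tests were two-sided, with Benjamini-Hochberg adjusted p under 0.01. Fold-changes are on the log2(FPKM + 1) scale, which understates changes of low genes. Tables of the 2 lines were deposited separately, so levels stand side by side only. Coordinates are from GENCODE 44 on GRCh37.

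The members and gene lists were chosen with earlier results of these data known. Named are all members, the kinases and pocket proteins they act with, the other G1 genes with the largest rise and fall past the threshold in each line and time, and the 2 genes most like each member among those with a group mean change of at least 1. On simulated data with 200 genes changed by a log2 value of 2, 151 to 166 were recovered in the comparisons of COLO858, 165 to 175 in those of MMACSF and 123 to 145 in the line differences, with 1 to 8 false calls. The changed genes averaged above 2 on the log2(FPKM + 1) scale, and simulated libraries varied independently. Real libraries with the same replicate number departed together, so these counts do not measure recovery or false calls in the real data. Alternatives were 0.1 FPKM added, no minimum, median-ratio rescaling, no small RNA genes, no trend, a replicate block, each library left out and only the compared groups fitted.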

Additional observations from a re-analysis of the deposited data

Results flagged for a closer look

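The responses of the lines to vemurafenib differed for 6 members by limma's interaction test, over the 12 libraries, at an adjusted p under 0.01. The values below are the log2 fold-change in COLO858 minus that in MMACSF. CCND1 differed by 0.87 at 48 h and by 0.93 in the change from 24 to 48 h. CCNE2 differed by 2.63 at 48 h. CDKN1A differed by 0.86 at 24 h, 1.76 at 48 h and 0.90 from 24 to 48 h. CDKN1B differed by -1.07 at 24 h and -1.63 at 48 h. CDKN2B differed by -1.65 at 24 h and -1.61 at 48 h. CDKN2C differed by 1.98 at 48 h and 1.91 from 24 to 48 h. With 2 libraries per group, no search for a library far from its group was made.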

How the results depend on the processing

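Counts of members past the threshold rested on how the spread between 2 libraries was estimated. Groups of a line carry the same replicate numbers, but the labels do not say what these pair. Across groups, the departures of libraries with the same number from the group mean had correlations of 0.196 to 0.211 in COLO858 and 0.0628 to 0.113 in MMACSF, and at 0.753 to 0.779 and 0.595 to 0.684 without small RNA genes. With the replicate block, 7 members passed at 24 h in COLO858 (3 without it), 4 at 48 h (2), 5 between the drug times (2), 5 at 24 h in MMACSF (3) and 5 in the line difference from 24 to 48 h (3). Counts over all genes rose in the same comparisons, from 1247 to 5719, 1202 to 5549 and 175 to 2280 of 12696, from 734 to 3284 of 12599, and from 403 to 1774 of 13595, so that 4 of 9 members at 48 h in COLO858 is near the share of all genes. Newly past the threshold with the block were CCND3, CCNE1, CCNE2 (adjusted p = 0.00372) and CDKN1C at 24 h, CDKN1A and CDKN2C at 48 h, and CCND3, CCNE2 (0.00495) and CDKN1A between the drug times in COLO858. In MMACSF these were CDKN1A and CDKN2C at 24 h and CDKN2C at 48 h. In the line differences they were CDKN1C at 24 h, CCND3 at 48 h, and CCND3 and CCNE2 from 24 to 48 h. The CDKN1C value rests on MMACSF libraries all below 1 FPKM, a line in which the gene was not tested. Of the 43 other G1 genes, 30, 24 and 16 passed in COLO858 with the block, 21 and 20 against DMSO in MMACSF, and 7, 15 and 15 in the line differences. Over all genes the block called 3790 of 12599 at 48 h in MMACSF. In the line differences at 24 and 48 h it called 2396 and 3434 of 13595, so that 7 of 43 at 24 h is near the share of all genes. With no expression minimum 1 member passed between the drug times in COLO858, with 0.1 FPKM added 1 differed between the lines at 24 h, and with no trend 1 differed from 24 to 48 h. Over all genes these settings called 86 of 18234, 336 of 13595 and 413 of 13595, respectively. Fitting only the groups compared was an alternative chosen after seeing the data. It left 0 members between the drug times in COLO858, against 35 of 12355 genes. In the line differences at 24 h, at 48 h and from 24 to 48 h it left 0, 3 and 0 members. There 0, 4 and 4 of the other G1 genes passed, against 173 of 13408, 649 of 13387 and 196 of 13306 genes. The cause was not tested. With each library left out, where the remaining library of its group was taken to vary like the other groups, the counts were 1 to 1 at 24 h, 0 to 0 at 48 h and 0 to 0 between the drug times in COLO858, 1 to 1, 1 to 1 and 0 to 0 in MMACSF, and 0 to 1, 2 to 4 and 0 to 1 in the line differences.

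For single genes under the other alternatives, 497 values kept direction and side of the threshold, 24 fell short of it, 23 newly passed it, and 1 changed sign, CDKN1A at 24 h in COLO858, which was -0.026 after median-ratio rescaling. With a library left out, 283 kept both, 114 fell short and 23 changed sign. None of those that changed sign had passed the threshold. Ranges were -0.033 to 0.25 for CCND3 at 48 h in COLO858. Between the drug times in MMACSF they were -0.032 to 0.13 for CCND3, -0.17 to 0.48 for CCNE1, -0.20 to 0.089 for CCNE2, -0.014 to 0.052 for CDKN1B and -0.38 to 0.23 for CDKN2C. For the line difference at 24 h they were -0.14 to 0.020 for CCND1, -0.20 to 0.081 for CCND3, -0.19 to 0.45 for CCNE1 and -0.24 to 0.37 for CDKN2C. From 24 to 48 h they were -0.11 to 0.54 for CCNE1 and -0.15 to 0.23 for CDKN2B. Median-ratio rescaling moved the median log2 fold-change of all genes by less than 0.1 in every comparison. Depth is unknown, so values near 1 FPKM, such as CCNE2 in drug, have a precision that cannot be stated.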
